A study of Mus musculus with 74 samples.

Results

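The defensins, small cationic antimicrobial peptides, were followed here through the H3K9me3 peaks that lie on their genes. Members were the autosomal protein-coding genes whose symbol starts with Defa or Defb followed by a digit in GENCODE vM21 on mm10, which gave 64 of 20807 genes, 22 of them Defa and 42 of them Defb. H3K9me3, a trimethyl mark on lysine 9 of histone H3, was profiled in mouse cells by ultra-low-input native ChIP-seq, and each of 10 groups is represented by 1 peak list. The groups are cumulus cells (CC), which surround the oocyte and served as nuclear donors, embryos cloned from them by somatic cell nuclear transfer (SCNT) at 6 and 14 hours post activation (hpa), with 2, 4 or 8 cells (2C, 4C, 8C), as morulae and as blastocyst inner cell mass (ICM) or trophectoderm (TE), and PN5 zygotes, fertilized zygotes late in the pronuclear phase. CC and oocytes came from B6D2F1 females, and the reconstructed oocytes were activated in SrCl2 with cytochalasin B. The PN5 zygotes came from C57BL/6 females mated with C57BL/6 males, and the study states that its fertilized H3K9me3 data were taken from earlier work. Embryo type, strain and source study therefore cannot be told apart between PN5 and the SCNT lists. Replicate libraries, 2 to 7 per group, were pooled before peaks were called, so no value below has a replicate error, no test was run, and the order of lists is a description. Absence of a peak means that no enrichment passed the caller's threshold at this depth, not that the mark was absent.

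Alpha-defensins, encoded by the Defa genes, are called cryptdins in the mouse and are stored in the granules of Paneth cells at the base of the small intestinal crypts, where the protease encoded by Mmp7 cuts them to their active form. Beta-defensins, encoded by the Defb genes, are made by epithelia of the skin, airway, gut and kidney, and many of them by the epididymis and testis. Both families grew by tandem duplication and lie in clusters of similar copies. H3K9me3 marks heterochromatin, including repeats and clusters of duplicated genes that are silent in most tissues.

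The copies are so alike that their sequences bear on every value below. Of the 231 pairs of Defa gene bodies, the most alike were 99.9% identical and the median pair 83.4%, and 17 of the 22 had a relative at 95% or more. RefSeq (GRCm38.p6) gave promoter sequences for 41 of the 64 members. The 250 bases before the annotated start are shown for 4 Defa genes on the plus strand, because Defa2 and Defa20 had no differing base among them and yet differed in peak coverage, and because Defa22 had no peak on its body in any list while Defa31 was among the most covered. Capitals mark the letters TATAAA.
Defa2 (chr8:21378267-21378516): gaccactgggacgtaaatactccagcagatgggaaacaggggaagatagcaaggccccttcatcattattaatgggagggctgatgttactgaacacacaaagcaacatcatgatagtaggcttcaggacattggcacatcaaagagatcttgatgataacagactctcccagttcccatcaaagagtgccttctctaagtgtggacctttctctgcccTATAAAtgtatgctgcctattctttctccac
Defa20 (chr8:21509008-21509257): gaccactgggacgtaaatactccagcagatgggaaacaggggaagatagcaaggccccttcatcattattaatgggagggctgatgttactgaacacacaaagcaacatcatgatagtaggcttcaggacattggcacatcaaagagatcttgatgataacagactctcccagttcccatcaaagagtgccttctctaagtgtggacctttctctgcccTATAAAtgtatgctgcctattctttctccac
Defa22 (chr8:21162027-21162276): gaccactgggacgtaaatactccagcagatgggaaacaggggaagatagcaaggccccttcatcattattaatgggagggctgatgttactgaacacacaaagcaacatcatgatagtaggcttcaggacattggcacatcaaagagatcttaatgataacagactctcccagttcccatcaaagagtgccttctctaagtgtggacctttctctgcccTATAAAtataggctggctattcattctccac
Defa31 (chr8:21191323-21191572): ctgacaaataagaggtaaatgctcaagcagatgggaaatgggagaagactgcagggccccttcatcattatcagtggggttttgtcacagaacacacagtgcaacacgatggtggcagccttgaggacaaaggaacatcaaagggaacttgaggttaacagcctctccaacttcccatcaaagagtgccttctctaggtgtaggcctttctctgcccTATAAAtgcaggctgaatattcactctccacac

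The upstream stretches of Defa22 and Defa2 differed at 5 of 250 bases, and that of Defa31 was 78.0% identical to that of Defa22 after alignment. Searched on both strands, TATAAA was present in the 300-base windows of 11 of 12 Defa promoters (91.7%) and 5 of 30 Defb promoters (16.7%), against 13.6% of all 31396 autosomal promoters in the table. Defa promoters held a median of 1.00 CpG and Defb promoters 1.50, against 7 over all promoters. These letters describe the windows and show nothing about which factors bind there.

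A gene body was called marked when merged peaks covered at least 50% of it. In CC 17 of the 64 members were marked (26.6%), against 4.11% of all autosomal protein-coding genes, and 15 of the 17 were Defa genes. The number was 7 at 6 hpa (10.9%, all genes 3.29%) and 14 at 14 hpa (21.9%, all genes 2.90%). After the first division it stayed at 3 or fewer. It was 2 in 2C (3.12%, all genes 1.62%), 3 in 4C (4.69%, all genes 2.08%) and 3 in 8C (4.69%, all genes 2.09%). Morulae had 3 (4.69%, all genes 1.52%), ICM 2 (3.12%, all genes 0.952%) and TE 1 (1.56%, all genes 0.788%). In PN5 no member was marked (all genes 1.99%), although 9 members, each of them a Defb gene, had some peak. The median member was covered to 0% in every list, so the counts come from a minority of genes. A single peak can fill a short body, and the median body was 966.5 bases in Defa genes against 17629 over all genes. Pooled over the bodies of all 64 members, coverage was 14.0% in CC, 6.99% at 6 hpa and 14.2% at 14 hpa. Over all genes it was 4.86%, 4.11% and 5.11%. On that measure CC did not lead.

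The CC count depended on the peak threshold and on the length of the list. The 40 CC peaks that touched members had a median fold enrichment over input of 2.70 and a median −log10 q of 2.41, against a median of 2.54 over all autosomal CC peaks. Keeping only peaks with −log10 q of at least 2 left 13 members marked in CC (20.3%, all genes 3.74%). It left 3 at 6 hpa (4.69%, all genes 2.68%) and 12 at 14 hpa (18.8%, all genes 2.55%). The lists also differ in total length, from 123 Mb of autosome in 2C to 212 Mb in CC. With every list trimmed by falling −log10 q to 123 Mb, 2 members were marked in CC (3.12%, all genes 2.19%). The numbers were 7 at 6 hpa (10.9%, all genes 3.06%) and 4 at 14 hpa (6.25%, all genes 1.32%). That turns the order of CC and 6 hpa around and brings the CC share near that of all genes. Defa3 and Defa17 were the 2 members still marked in CC under that trimming, each covered to 100%.

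**Figure D1:**
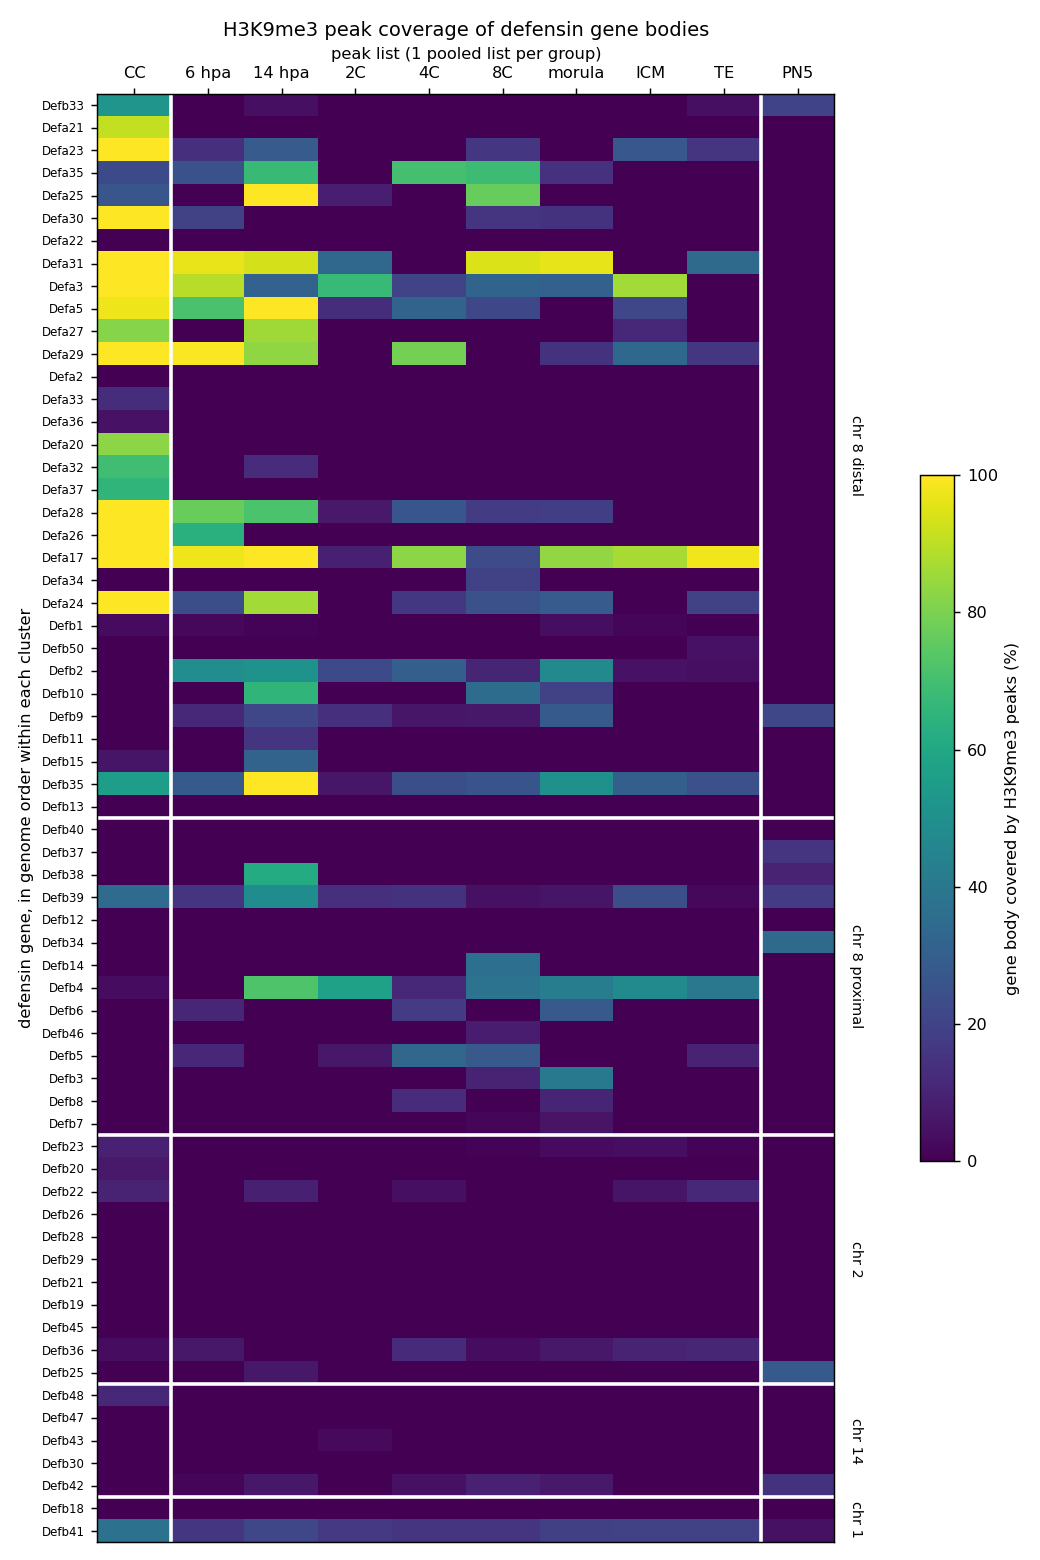
Share of each defensin gene body covered by H3K9me3 peaks (colour, 0 to 100%) for 64 genes (rows, in genome order within each cluster) in the 10 pooled lists (columns). Bright cells sit mainly in the Defa rows of the distal chromosome 8 cluster in CC, 6 hpa and 14 hpa, and the PN5 column reaches at most 34.5%.

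The Defa genes were covered most densely in relation to their length, while the longer Defb bodies held more covered bases in every list (16594 against 13945 in CC). As a share of their pooled body bases, 66.2% was covered in CC, 31.0% at 6 hpa, 39.1% by 14 hpa, 6.24% in 2C, 15.6% in 4C, 18.2% in 8C, 13.8% in morulae, 12.4% in ICM, 8.43% in TE and 0% in PN5. The CC list was the highest and PN5 the only one without any peak on a Defa body. In CC, exons and introns of the Defa genes were covered alike, at 63.2% and 68.4%. With lists of equal length, the CC share was 10.2%, below the 29.9% at 6 hpa and near the 11.6% at 14 hpa.

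Defa17, a Paneth cell cryptdin, was the member marked in the most lists, 7 of 10. Its body (chr8:21655780-21656735, plus strand) was covered to 100% in CC, 97.3% at 6 hpa, 100% by 14 hpa, 8.79% in 2C, 82.7% in 4C, 23.4% in 8C, 83.7% in morulae, 87.0% in ICM, 98.0% in TE and 0% in PN5. Coverage was low in 2C and 8C and above the threshold in the other SCNT lists. With lists of equal length it was 0% in morulae and in TE and unchanged in the other 8 lists. Defa31 (chr8:21191614-21192549) was covered to 100% in CC, 96.8% at 6 hpa, 93.7% by 14 hpa, 33.3% in 2C, 0% in 4C, 94.6% in 8C, 96.2% in morulae, 0% in ICM, 34.5% in TE and 0% in PN5. It was therefore marked in 5 lists, and neighbouring stages went from no peak to nearly full coverage. With lists of equal length it was at 0% in CC and at 14 hpa. Defa3 (chr8:21287409-21288377) was covered to 100% in CC, 89.4% at 6 hpa, 31.5% by 14 hpa, 67.8% in 2C, 20.7% in 4C, 32.1% in 8C, 30.7% in morulae, 86.3% in ICM and 0% in TE and PN5. Among the named Defa genes it was the one marked in ICM and bare in TE.

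Of the 22 Defa genes, 6 were marked in CC alone, 4 in CC and at 14 hpa but in no later list, 6 in some list after 14 hpa, 1 in CC and at 6 hpa alone, and 5 nowhere. Defa24 and Defa5, further cryptdins, were among the 4. Defa24 (chr8:21734494-21735471) was covered to 100% in CC, 23.9% at 6 hpa, 86.2% by 14 hpa, 0% in 2C, 16.2% in 4C, 24.9% in 8C, 28.7% in morulae, 0% in ICM, 19.5% in TE and 0% in PN5. Nearly all of its body is unique sequence, with 98.5% of its 100-base windows found once in the genome. Defa5 (chr8:21297439-21298375) was covered to 97.3% in CC, 71.2% at 6 hpa, 100% by 14 hpa, 13.1% in 2C and at most 31.8% in every later list. With lists of equal length neither was marked in CC or at 14 hpa, where both were at 0%. The 5 Defa genes that were marked nowhere were Defa2, Defa22, Defa33, Defa34 and Defa36, of which the last 4 lie outside the rule for named genes and are named because they complete the count. Defa2 and Defa22 had no peak on the body in any list.

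Whether reads can be placed on single copies differs between the members. The windows found once made up 22.2% in Defa17, 17.4% in Defa31, 26.2% in Defa3 and 5.85% in Defa5. In 13 of the 22 Defa genes under 50% of the 100-base windows occur once in the genome, and in Defa2, Defa20 and Defa33 none do, whereas no Defb gene falls below 61.6%. Defa20 was covered to 82.6% in CC and Defa2 to 0%, although their upstream stretches are the same letter for letter. How the alignment placed reads with several equal matches is not given in the sources used here. In the full lists, the 9 Defa genes with at least 50% unique windows were covered to 69.6% in CC and the other 13 to 63.8%. In those full lists, coverage in CC was as high in the more unique genes, whose unique share ran from 53.4% (Defa26) to 98.5% (Defa24). Of those 9 genes, 6 were marked in CC, 2 at 6 hpa, 5 at 14 hpa, 2 each in 4C and 8C and 0 in the other 5 lists. The marked Defa genes of morulae, ICM and TE were thus all from the less unique 13, with 2, 2 and 1 genes. Keeping only peaks with −log10 q of at least 2 left Defa29 and Defa30 of the 9 at 0% in CC, from 100% each. Of the other 13, Defa32, Defa36 and Defa37, named to complete that comparison, also fell to 0%, from 69.4%, 4.79% and 65.6%. With lists of equal length, none of the 9 was marked in CC, where Defa35 reached 22.6% and the rest had no peak. Defa3 and Defa17, still marked in CC under that trimming, are among the 13.

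**Figure D2:**
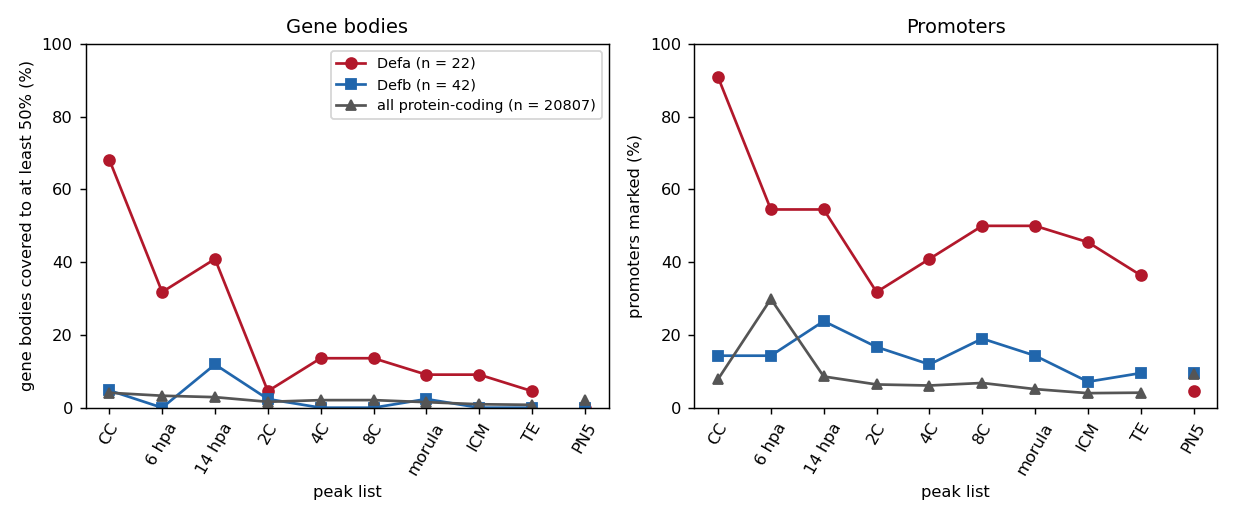
Percent of Defa (n = 22), Defb (n = 42) and all autosomal protein-coding genes (n = 20807) with a marked gene body (left) or promoter (right) in each pooled list. The PN5 point is not joined to the SCNT series. Defa bodies go from 68.2% in CC to 4.55% in 2C, while Defb bodies stay at or below 11.9%.

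The Defb genes were covered far less than the Defa genes, and 36 of the 42 were marked in no list. Of all genes 90.8% were marked in no list, so that count is near the general share. In CC 2 were marked (Defb33 and Defb35, 4.76% against 4.11% of all genes). At 14 hpa 5 were marked (Defb2, Defb4, Defb10, Defb35 and Defb38, 11.9% against 2.90%). The number was 1 in 2C (Defb4, 2.38% against 1.62%), 1 in morulae (Defb35, 2.38% against 1.52%) and 0 in the other 6 lists. Defb33 and Defb38 lie outside the rule for named genes and are given to complete these counts. Pooled over the 42 bodies, coverage was 8.45% in CC, 4.41% at 6 hpa and 11.5% by 14 hpa, and between 3.73% and 6.71% in the other 7 lists. Over all genes the corresponding values were 4.86%, 4.11% and 5.11%, and from 3.16% to 4.89%.

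Defb4, an inducible epithelial beta-defensin, was covered more in the SCNT lists from 14 hpa on than in CC. In CC 1 peak of 288 bases overlapped its start. Its promoter was called marked in 8 lists, CC included. Its body (chr8:19198706-19201545) was covered to 3.13% in CC, 0% at 6 hpa, 72.3% by 14 hpa, 57.3% in 2C, 11.3% in 4C, 38.1% in 8C, 42.3% in morulae, 48.0% in ICM, 39.9% in TE and 0% in PN5. It was low in the donor cells and in fertilized zygotes. The highest value was at 14 hpa in the full lists and in 2C with lists of equal length (48.5% and 57.3%), where its call at 14 hpa was lost. Defb35 (chr8:21938352-21940878) was covered to 56.0% in CC, 28.3% at 6 hpa, 100% by 14 hpa, 6.02% in 2C, 24.2% in 4C, 25.8% in 8C, 50.1% in morulae, 30.2% in ICM, 24.9% in TE and 0% in PN5. This gene too reached its highest coverage at 14 hpa. Defb2 (chr8:21839926-21843482) was covered to 0% in CC, 49.2% at 6 hpa, 51.1% by 14 hpa, 22.6% in 2C, 30.1% in 4C, 10.3% in 8C, 47.7% in morulae, 4.72% in ICM, 4.19% in TE and 0% in PN5. Its coverage lay close to the 50% threshold in 3 lists, just above it at 14 hpa and just below it at 6 hpa and in morulae.

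Other well-known beta-defensins were marked in no list, like most Defb genes and like 90.8% of all genes. Defb1, which epithelia make without induction, was covered to at most 3.55% in any list. Defb14, the mouse counterpart of a human skin defensin, had a peak only in 8C (36.6%), and Defb3 had peaks in 8C (10.1%) and in morulae (40.3%). On chromosome 2, whose Defb genes are expressed largely in the male reproductive tract, no member was marked, and the highest values were 28.5% for Defb25 in PN5, 11.9% for Defb36 in 4C and 11.5% for Defb22 in TE. On chromosome 14 the highest were 14.8% for Defb42 in PN5 and 11.3% for Defb48 in CC, while Defb43 reached 2.48% in 2C and Defb30 had no peak. Defb12 on chromosome 8 and Defb19 on chromosome 2 also had no peak in any list.

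Promoters, taken as 1 kb on either side of the annotated start, were called marked when a peak and the promoter overlapped by at least 50% of either one, so a short peak inside the promoter is enough. Marked members numbered 26 in CC (all genes 7.83%), 18 at 6 hpa (all genes 29.9%), 22 at 14 hpa (all genes 8.58%), 14 in 2C (all genes 6.39%), 14 in 4C (all genes 6.10%), 19 in 8C (all genes 6.80%), 17 in morulae (all genes 5.11%), 13 in ICM (all genes 4.00%), 12 in TE (all genes 4.13%) and 5 in PN5 (all genes 9.25%). As shares of 64 these are 40.6%, 28.1%, 34.4%, 21.9%, 21.9%, 29.7%, 26.6%, 20.3%, 18.8% and 7.81%. At 6 hpa and in PN5 the defensin share was near that of all genes and slightly below it, and in the other 8 lists it was above. Defa promoters were marked in 20 of 22 genes in CC, 12 at 6 hpa, 12 at 14 hpa, 7 in 2C, 9 in 4C, 11 in 8C, 11 in morulae, 10 in ICM, 8 in TE and 1 in PN5. Defb promoters numbered between 3 and 10 of 42 in every list. Promoters that were themselves covered to at least 50% numbered 14 in CC (all genes 3.75%), 4 at 6 hpa (7.18%), 12 at 14 hpa (3.31%), 4 in 2C (1.94%), 5 in 4C (2.55%), 3 in 8C (2.29%), 6 in morulae (1.66%), 2 in ICM (1.14%), 2 in TE (1.04%) and 1 in PN5 (3.65%).

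In the full lists, losses outnumbered gains in the steps from CC to 6 hpa, from 14 hpa to 2C and from CC to ICM. Over all genes they did so too (559 against 387, 392 against 125 and 738 against 80). Among members, losses also led from morulae to ICM (2 against 1), morulae to TE (2 against 0) and ICM to TE (1 against 0). From 2C to 4C gains led (3 against 2). Gains outnumbered losses from 6 to 14 hpa, a step in which 383 of all genes lost the call and 303 gained it. Of the 17 members marked in CC, 7 were still marked at 6 hpa (Defa3, Defa5, Defa17, Defa26, Defa28, Defa29 and Defa31) and 10 were not, among them Defa20, Defa21, Defa23, Defa27 and Defa30, each with a loss of over 80 percentage points. Over all genes, 2.69% were marked in CC and not at 6 hpa. Kept members made up 41.2% of those marked in CC, against 34.7% of all genes marked there. Between 6 and 14 hpa, 5 of 7 members kept the call (71.4%, against 44.0% of all genes marked at 6 hpa), and 9 were newly marked (all genes 1.46%), led by Defa25, which went from 0% to 100%, Defa27 from 0% to 85.6% and Defb4 from 0% to 72.3%. Between 14 hpa and 2C 13 of 14 lost the call, as did 392 of the 604 genes marked at 14 hpa (1.88% of all genes). Defb4 alone kept the call, so that 7.14% of the marked members were kept, against 35.1% of all genes marked at 14 hpa. Between CC and ICM 15 of 17 lost it, as did 738 of the 856 genes marked in CC (3.55% of all genes), and Defa3 and Defa17 kept it. The kept share was 11.8%, near the 13.8% of all genes marked in CC. With lists of equal length, the losses were 0 from CC to 6 hpa, 4 from 14 hpa to 2C and 0 from CC to ICM. The gains at 14 hpa were 2. Under that trimming Defa5, Defa26, Defa28, Defa29 and Defa31 gained the call from CC to 6 hpa. From 6 to 14 hpa Defa3, Defa5, Defa26, Defa29 and Defa31 lost it, so losses outnumbered gains there. Some of the genes named here, Defa26, Defa28 and Defa29, complete the count and were not chosen by the rule.

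All 14 members marked at 14 hpa were unmarked in PN5, the fertilized zygote stage set beside it, where 2.27% of all genes were marked at 14 hpa and not in PN5. Defa5, Defa17, Defa25 and Defb35 were each covered to 100% at 14 hpa and to 0% in PN5. Of all genes marked at 14 hpa, 21.7% were also marked in PN5. With equal list lengths 4 members were marked at 14 hpa (Defa17, Defa27, Defa28 and Defb35) and none in PN5. The highest member values in PN5 were those of Defb34 (34.5%), named for that value, and Defb25 (28.5%).

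The members lie in 4 clusters and 1 pair, and only the 2 clusters on chromosome 8 and the chromosome 1 pair stood above the autosomes as a whole in most lists. The distal chromosome 8 cluster, from Defb33 to Defb13 (chr8:20892669-21948850, 1056 kb), holds all 22 Defa and 10 Defb genes. Peaks covered 36.2% of it in CC, 10.7% at 6 hpa, 21.9% by 14 hpa, 7.0% in 2C, 8.68% in 4C, 8.88% in 8C, 12.7% in morulae, 12.9% in ICM, 9.87% in TE and 3.13% in PN5. The 19 autosomes had 8.86%, 5.77%, 8.63%, 5.12%, 6.53%, 7.03%, 7.86%, 6.43%, 6.06% and 5.39% in the same order. CC was the highest and PN5 the only list below the autosomes. The sequence between the genes was covered much as the whole, at 36.9% in CC and 3.17% in PN5, so the peaks were not restricted to gene bodies. In CC, bases of this span that start a unique 100-base window were covered to 32.8% and bases that start a repeated one to 40.5%. Trimmed to equal length, the cluster was covered to 11.8% in CC, 9.39% at 6 hpa, 8.48% by 14 hpa and 3.03% in PN5.

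**Figure D3:**
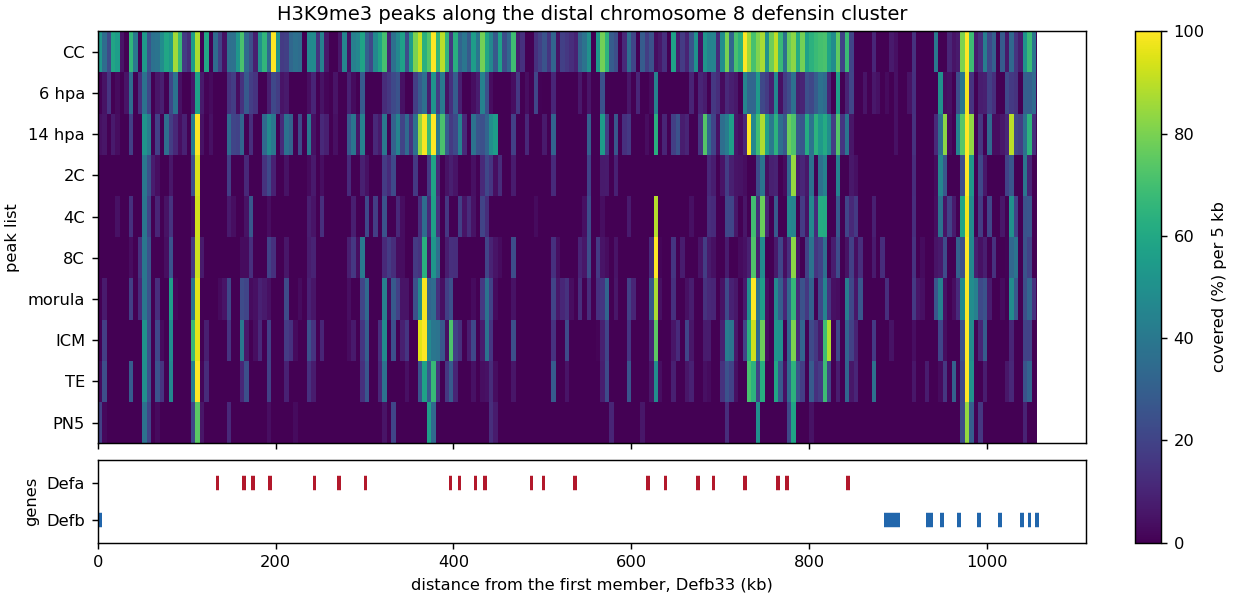
H3K9me3 peak coverage per 5 kb (colour, 0 to 100%) along the distal chromosome 8 cluster for the 10 pooled lists, with the Defa and Defb genes drawn below by distance from Defb33 in kb. CC is covered broadly along the Defa stretch (41.1%), and a few narrow positions are covered in all 10 lists, PN5 included.

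Within this cluster the Defa stretch (710 kb, from Defa21 to Defa24) was covered to 41.1% in CC, 10.4% at 6 hpa, 24.4% by 14 hpa and 2.23% in PN5. The Defb stretch that follows it (172 kb, from Defb1 to Defb13) was covered to 20.4% in CC, 13.3% at 6 hpa, 22.4% by 14 hpa and 4.67% in PN5. CC exceeded 14 hpa in the Defa stretch and not in the Defb stretch. In CC 3.19% of the 500 kb after Defb13 was covered, and 5.27% at 14 hpa. Of the 500 kb before Defb33, 350 kb is assembled, and peaks covered 74.3% of that in CC and 63.2% at 14 hpa. High coverage therefore stopped at the distal edge of the cluster and went on beyond the proximal edge.

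The proximal chromosome 8 cluster, from Defb40 to Defb7 (chr8:18974940-19497775, 14 Defb genes), was covered to 15.6% in CC, 8.06% at 6 hpa, 19.7% by 14 hpa, 12.9% in 2C, 12.6% in 4C, 14.0% in 8C, 17.0% in morulae, 12.1% in ICM, 10.7% in TE and 7.09% in PN5. Its highest value was at 14 hpa in the full lists, and in 2C with lists of equal length (12.9%, against 10.8% at 14 hpa). Defb39, which has the highest mean there after Defb4, had 34.9% of its body under peaks in CC and 48.6% at 14 hpa. Defb5 had 33.0% in 4C. Peaks in CC covered 3.88% of the 500 kb before Defb40 and 44.3% of the 400 kb assembled within 500 kb after Defb7. The chromosome 2 cluster of 11 Defb genes was covered to between 0.579% and 5.55%, and the chromosome 14 cluster of 5 to between 0.607% and 3.94%. Both lay below the autosomes in every list. The pair Defb18 and Defb41 on chromosome 1, named to account for all members, spans 28.7 kb and was covered to 32.9% in CC and 2.14% in PN5, all of it outside the body of Defb18. The 500 kb before and after the pair were covered to 33.0% and 39.3% in CC, so the pair did not stand above its surroundings there.

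**Figure D4:**
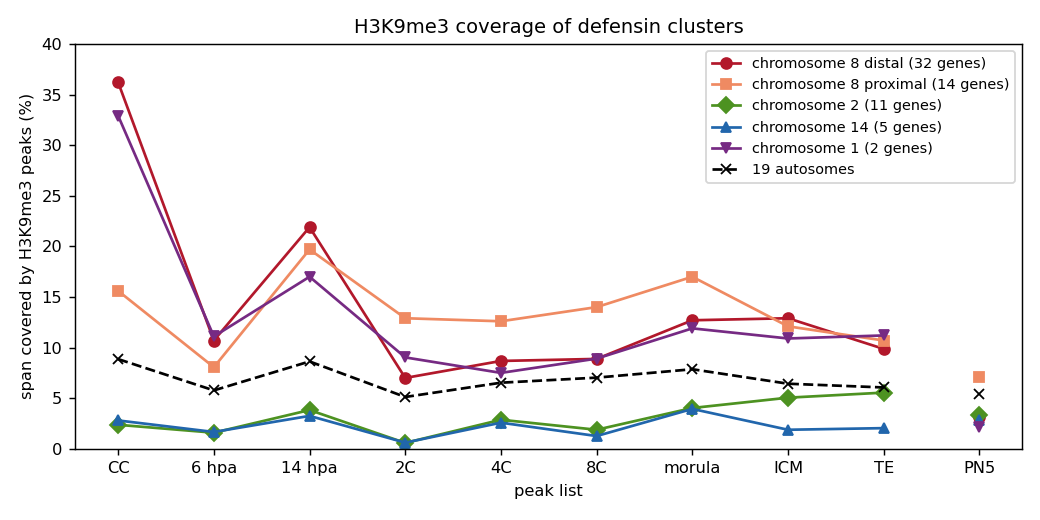
Percent of each defensin cluster span covered by H3K9me3 peaks in each pooled list, with the 19 autosomes for comparison (dashed). The distal chromosome 8 cluster is highest in CC at 36.2%, the proximal one at 14 hpa at 19.7% in these full lists, and the chromosome 2 and 14 clusters lie below the autosomes.

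Set beside other duplicated families, the defensins were not alone in their CC coverage. Of 119 Vmn2r genes, vomeronasal receptors in large clusters, 38.7% were marked in CC, 0% at 6 hpa, 5.04% by 14 hpa and 0.840% in every other list. Of 1128 Olfr genes, olfactory receptors, 4.08% were marked in CC and from 0.355% to 2.57% in the other lists. Among the 6027 genes within the defensins' range of length and GC content, 8.66% were marked in CC, 3.70% at 6 hpa, 5.99% by 14 hpa and 2.80% in PN5. That length range, 698 to 18587 bases, is wider than the 790 to 1134 bases of the Defa genes. The defensin shares of 26.6%, 10.9% and 21.9% were above those of these 6027 genes in the first 3 lists, and that of 0% in PN5 was below. The Vmn2r share in CC, 38.7%, was higher than that of the defensins. Repeats masked in the genome sequence made up 27.8% of all member bases and 38.8% of the covered ones in CC, rising to 61.7% in 2C.

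Other genes of antimicrobial defence were rarely marked, as were genes in general. Of 22 genes for peptides and proteins that act on microbes, 0 were marked in CC, and across the other lists 3 were marked in 1 list each, beside 0.788% to 4.11% of all genes per list. With so few genes, these counts are near the general share. The 3 were Wfdc12, a protease inhibitor, at 6 hpa (55.1%), S100a8, a subunit of calprotectin, in 4C (100%) and Spag11b, an epididymal defensin-like gene inside the proximal cluster, in morulae (58.2%). Of 8 genes for processing, reception and regulation, among them Mmp7 and Ccr6, a receptor that beta-defensins can engage, none was marked in any list. The highest was Sox9, a regulator of Paneth cell formation, at 40.2% at 6 hpa. Mmp7 reached 2.35% and Ccr6 had no peak. Of the 22 genes 7, and of the 8 genes 2, had no peak on the body in any list.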

How the data were processed

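The series holds 74 libraries in 20 groups, 41 H3K9me3 precipitates and 33 inputs. The authors trimmed reads with cutadapt 1.16, aligned them to mm10 with BWA, merged replicates with SAMtools, removed duplicates and drew the same number of reads per group with Picard, and called broad peaks over input with MACS2. Other versions, and the MACS2 threshold, are not given in the sources used here. The deposited lists give each peak a fold enrichment (a ratio to input) and a −log10 q value, both from the authors' peak caller. Library read counts were not used here, and 1 list per group leaves no replicate error.

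From these lists, overlapping peaks were merged and intersected with GENCODE vM21 genes of the 19 autosomes (Python 3.11.15, numpy 2.4.6, pandas 2.3.3). No peak ran past a chromosome end of the reference, GRCm38.p6. Clusters joined members less than 500 kb apart, with at least 3 members. Uniqueness is the share of 100-base windows found once in the genome on both strands. The coverage functions were tested on simulated data. Members and lists were chosen with earlier results of these data known.

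Named members were, in each cluster, the 3 highest and the 1 lowest by mean body coverage, the 5 largest changes between CC and 6 hpa, 6 and 14 hpa, 14 hpa and 2C, 14 hpa and PN5, and ICM and TE, any marked in at least 8 lists or in PN5 and not at 14 hpa (none), and the well-known Defb1, Defb2, Defb3, Defb4, Defb14, Defa5, Defa17, Defa20 and Defa24. Others are named where stated. Alternatives were peaks with −log10 q of at least 2, lists trimmed to equal length, thresholds of 25% and 75%, members with at least 50% unique windows, bodies with 5 kb on either side, other promoter rules and widths, and other cluster rules. Of the 23 antimicrobial genes listed, Pla2g2a was not found under that symbol.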

Additional observations from a re-analysis of the deposited data

How the results depend on the processing

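No paired analysis was possible because each group has 1 list made from its merged replicates. Leaving out a replicate was likewise not possible. Counts within 1.5 times the reported one, and coverages inside its Wilson 95% binomial interval with each 1 kb as a unit, are not listed. Trimming every list to equal length, which removes peaks of low −log10 q from the longer lists, gave 2 marked members in CC, 4 at 14 hpa and 0 in TE, and pooled body coverage of 3.88% in CC, 6.77% at 14 hpa and 4.50% in morulae. For cluster spans and stage changes, where this and the −log10 q minimum were chosen after the data were seen, it gave for the distal chromosome 8 cluster 11.8% in CC, 8.48% at 14 hpa, 6.67% in 4C, 6.16% in 8C, 8.12% in morulae, 9.65% in ICM and 7.84% in TE. For the proximal cluster it gave 6.32% in CC, 10.8% at 14 hpa, 9.05% in 4C, 9.60% in 8C, 9.07% in morulae and 8.96% in ICM, and for chromosome 2 in CC 0.926%. Under it, 0 members lost the call from CC to 6 hpa, 0 from CC to ICM, 4 from 14 hpa to 2C, 4 from 14 hpa to PN5 and 2 from ICM to TE, and 2 gained it from 6 to 14 hpa. Keeping peaks with −log10 q of at least 2 gave 3 marked members at 6 hpa and 1 each in 2C and 8C, with pooled coverage of 2.99% in 8C and 1.66% in PN5. The distal cluster was then covered to 30.2% in CC, 7.89% at 6 hpa, 18.5% by 14 hpa, 6.67% in 4C, 5.51% in 8C and 10.4% in morulae, the proximal one to 12.5% in CC, 9.05% in 4C, 8.81% in 8C, 13.8% in morulae and 4.27% in PN5, chromosome 2 at 6 hpa to 0.624% and the chromosome 1 pair in PN5 to 0%. It left each of the 6 stage changes within 1.5 times its count. A threshold of 25% gave 7 marked members in 4C, 9 in 8C, 10 in morulae, 6 in ICM, 3 in TE and 2 in PN5, and one of 75% gave 8 at 14 hpa and 0 in 2C. Without the members of low uniqueness, which leaves 51, there were 8 in CC, 2 at 6 hpa, 1 in 2C, 1 in morulae and 0 in ICM and TE. Promoters covered to at least 50% numbered 14 in CC, 4 at 6 hpa, 12 at 14 hpa, 4 in 2C, 5 in 4C, 3 in 8C, 6 in morulae, 2 in ICM, 2 in TE and 1 in PN5, and with 500 bases on either side of the start TE had 6. Between the genes, the chromosome 1 span was covered to 1.78% in 2C, 0% in 4C, 3.31% in 8C, 2.50% in ICM, 3.07% in TE and 0% in PN5, and the chromosome 14 span to 0% in 8C. Where no construction of the setting is named, the cause was not tested. Other cluster distances, and bodies with 5 kb on either side, left each value inside its interval. No reported value changed sign, since coverages and counts have none, but under equal length the order of CC and 6 hpa turned around. Gains then outnumbered losses from CC to 6 hpa, and losses outnumbered gains from 6 to 14 hpa. The share of members marked in CC came near that of all genes. The highest list became 2C in place of 14 hpa for the proximal cluster (12.9%) and for Defb4 (57.3%).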

Other observations

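The annotation also holds 18 defensin pseudogenes. Of these, 11 were marked in CC, 2 at 6 hpa, 6 at 14 hpa, 3 in each of 2C, 4C and 8C, 2 each in morulae, ICM and TE and 1 in PN5. Of all autosomal protein-coding genes, 0.788% (TE) to 4.11% (CC) were marked per list. Some pseudogenes are short, such as Defa-ps4 (183 bp) and Defa-ps7 (168 bp), so that 1 small peak can cover them fully. Defa-ps8 (chr8:21270693-21271997) had peaks in all 10 lists, covering 100% of it from CC to 8C, 46.7% in morulae, 86.2% in ICM, 56.8% in TE and 75.1% in PN5. It was the 1 family pseudogene marked in PN5, where no protein-coding member was. Defa-ps1 was covered to 79.0% in CC, 15.8% at 6 hpa, 75.9% by 14 hpa, 100% in 2C, 4C and 8C, 32.2% in morulae, 29.9% in ICM, 76.7% in TE and 0% in PN5. These genes were chosen after their values were seen.

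Of the 9 other protein-coding genes inside the distal chromosome 8 cluster, 5 were marked in CC (all genes 4.11%). AY761184 lay wholly under peaks in CC and at 14 hpa (100%) and to 87.9% at 6 hpa, and Gm15292 to 100% in CC, 90.5% at 6 hpa, 13.9% by 14 hpa, 99.0% in 2C, 0% in 4C, 100% in 8C, 93.8% in morulae and 0% in ICM and TE. Both had no peak in PN5, and both were chosen after their values were seen.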
